A study of Mus musculus with 12 samples.

Results

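The genes described here are the receptors of the mouse lung for the constant (Fc) part of immunoglobulin G and the subunit they share. They were chosen by symbol, Fcgr1, Fcgr2b, Fcgr3, Fcgr4, Fcer1g and Fcgrt, and all 6 were present among the 35599 genes of the deposited expression table. Fcgr1, Fcgr3 and Fcgr4 encode activating receptors, which bind antibody-coated particles and trigger uptake and an oxidative burst. They depend on the γ chain encoded by Fcer1g, whose activation motif (ITAM) is phosphorylated by Src family kinases and then recruits the kinase Syk. Fcgr2b encodes the inhibitory receptor, which carries an inhibitory motif (ITIM) in its own tail and recruits the phosphatase SHIP-1, product of Inpp5d. Fcgrt encodes the heavy chain of the neonatal Fc receptor, which pairs with β2-microglobulin, binds IgG in acidic endosomes and returns it to the cell surface. In lung, the activating receptors are carried mainly by macrophages, monocytes and neutrophils. Natural killer cells carry the product of Fcgr3, B cells that of Fcgr2b, and endothelial and epithelial cells also use that of Fcgrt.

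Polyadenylated RNA of whole mouse lung was sequenced in 12 libraries, 4 in each of 3 groups. The control group received saline. The AE-PF group received bleomycin (BLM), which injures the alveoli and leaves scars, combined with the bacterial product lipopolysaccharide (LPS), as a model in which pulmonary fibrosis worsens acutely. Mice of the ND-RHL group had the same challenge and then liposomes loaded with nintedanib, a tyrosine kinase inhibitor, and dexamethasone, a glucocorticoid, with hyaluronic acid and RGD peptides on their surface. No group with empty liposomes or with 1 drug alone was analysed here, so the parts of the treatment cannot be told apart. The labels give neither strain, sex, age, dose nor day, and do not say whether the libraries of a group came from separate animals, so the p-values measure the spread between these samples, which may be technical. The 3 comparisons share libraries with each other and are not independent.

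Libraries held 16152379 to 21667129 fragments counted to genes. Values are FPKM, the fragments of a gene relative to its length and to all fragments of its library, a scale per length on which levels can be compared between genes. Surfactant and other alveolar type 2 transcripts were present in every library, with a summed FPKM of 1608 or more. AE-PF library 2 and ND-RHL library 4 stood apart because they also held transcripts of squamous epithelium and skeletal muscle: 6 such markers summed to an FPKM of 2128 and 6750 there and to at most 87.0 in the other 10 libraries. AE-PF libraries 1 and 2 also differed from 3 and 4 in immunoglobulin transcripts, as described below. In bulk tissue, fewer cells of a type and less RNA per cell cannot be told apart, which holds for every level below.

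Fcgr1, Fcgr2b, Fcgr3, Fcgr4 and Fcer1g were 2.89 to 5.90 times as high in AE-PF as in saline lung by their mean FPKM, and every AE-PF library lay above every saline library. How many of all genes had groups apart in this way was not counted, here or below. In ND-RHL lung these genes were lower than in AE-PF lung, but by very different amounts. Of the rise over saline, 15.5% remained for Fcgr3, 17.9% for Fcgr2b, 20.3% for Fcgr1 and 32.8% for Fcer1g, against 64.1% for Fcgr4. Fcgrt stood at similar levels throughout, between 40.2 and 62.6 FPKM in the 12 libraries.

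**Figure D1:**
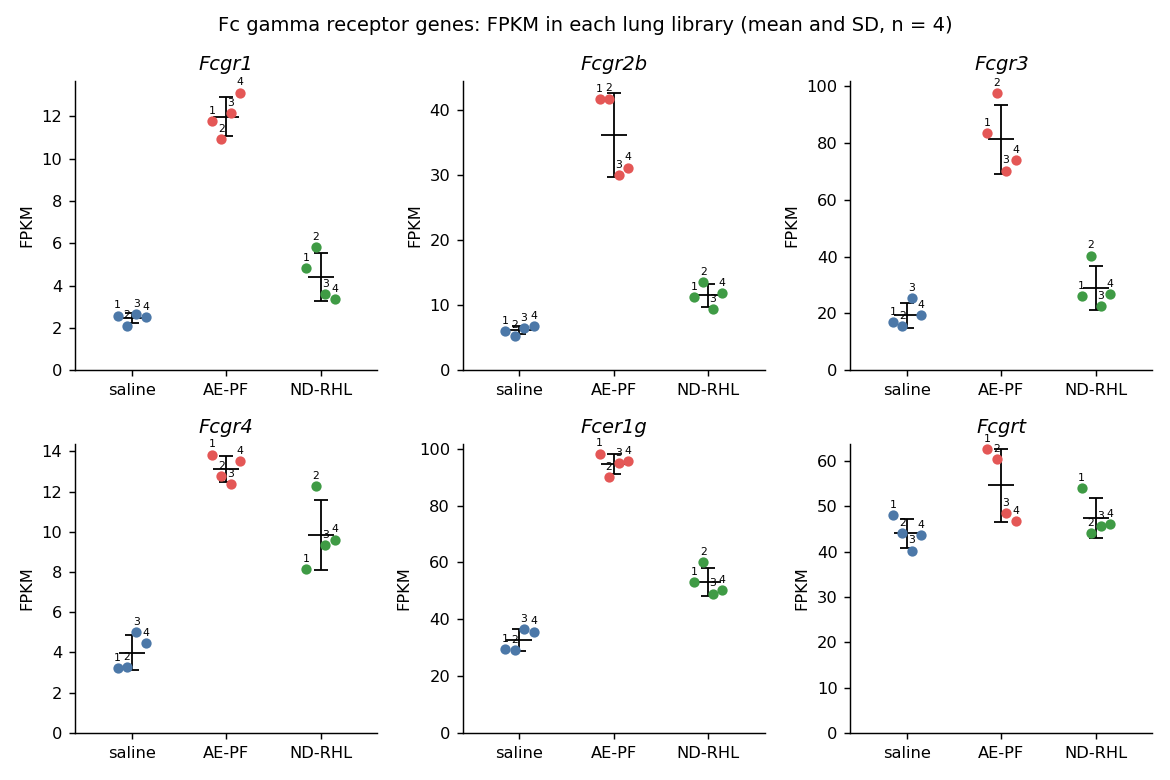
FPKM of the 6 genes in each lung library, with points numbered by library, horizontal bars for the group mean and error bars for the SD (n = 4 per group). The AE-PF libraries lie above all others for Fcgr1, Fcgr2b, Fcgr3, Fcgr4 and Fcer1g, the ND-RHL libraries of Fcgr4 reach 12.3, close to the lowest AE-PF value of 12.4, and the groups overlap for Fcgrt.

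Fcgr2b, Fcgr4, Fcgr3 and Fcer1g lie within 275749 bases of chromosome 1 in the GRCm38 build (GENCODE M21 annotation). Fcgr2b spans chr1:170958617-170976547 on the minus strand, Fcgr4 chr1:171018920-171029761 on the plus strand, Fcgr3 chr1:171051174-171064935 on the minus strand and Fcer1g chr1:171229572-171234365 on the minus strand. Fcgr1 lies apart at chr3:96282909-96293969 and Fcgrt at chr7:45092990-45103851, both on the minus strand. Fcgr2b and Fcgr3 are related in sequence. Of the 1733 windows of 100 bases in Fcgr3 exons, 44 (2.54%) also occur in Fcgr2b exons, and Fcgr2b shares 155 exon bases with the antisense gene Gm38204, so fragments from these stretches could be counted to either gene. Of the 5843 windows of Fcgr2b, 82 (1.40%) occur in some other gene, among them Fcgr3 (44), Gm4117 (19) and Ntrk3 (10). Fcgr1, Fcgr4, Fcer1g and Fcgrt shared no window with any other gene.

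Promoters are shown here because most of these genes moved together in the results that follow. RefSeq promoter windows for GRCm38.p6 were found for all 6 genes, and the 250 bases before the annotated start were searched on both strands for 3 short motifs. GAGGAA is the core bound by PU.1, the myeloid factor encoded by Spi1. TTCNNNGAA is the element bound by STAT dimers (GAS), and GAAANNGAA is the core of interferon response elements. The windows below run 5′ to 3′ on each gene's own strand, and capitals mark a match to 1 of these motifs on either strand (TTCCTC is GAGGAA read on the other strand). They are chr3:96293970-96294219 for Fcgr1, chr1:171059404-171059653 for the first of 2 Fcgr3 starts, chr1:171018676-171018925 for Fcgr4 and chr1:170976072-170976321 for Fcgr2b, which is shown as the inhibitory member with no match.
Fcgr1: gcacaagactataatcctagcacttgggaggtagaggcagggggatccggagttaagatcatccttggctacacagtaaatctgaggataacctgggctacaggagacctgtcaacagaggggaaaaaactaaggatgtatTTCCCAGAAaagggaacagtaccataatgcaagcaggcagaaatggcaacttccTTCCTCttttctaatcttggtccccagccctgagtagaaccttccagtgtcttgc
Fcgr3: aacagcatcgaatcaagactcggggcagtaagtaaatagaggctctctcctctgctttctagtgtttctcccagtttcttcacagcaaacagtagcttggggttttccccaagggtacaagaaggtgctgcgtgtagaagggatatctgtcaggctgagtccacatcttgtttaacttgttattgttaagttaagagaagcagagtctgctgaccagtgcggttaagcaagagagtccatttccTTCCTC
Fcgr4: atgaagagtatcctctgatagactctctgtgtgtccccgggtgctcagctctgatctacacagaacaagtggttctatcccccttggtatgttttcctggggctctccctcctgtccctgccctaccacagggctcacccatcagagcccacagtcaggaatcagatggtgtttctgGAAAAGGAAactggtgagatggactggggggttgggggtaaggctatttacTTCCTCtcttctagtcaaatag
Fcgr2b: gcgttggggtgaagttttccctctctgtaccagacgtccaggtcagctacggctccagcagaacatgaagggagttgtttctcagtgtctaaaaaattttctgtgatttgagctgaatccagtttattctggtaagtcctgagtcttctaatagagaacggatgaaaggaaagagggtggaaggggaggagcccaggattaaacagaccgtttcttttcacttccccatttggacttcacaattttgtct
The 3 activating receptors each held GAGGAA once, 55 bases before the start in Fcgr1, 6 or 15 bases before the alternative starts of Fcgr3 and 22 bases before the start of Fcgr4. Among 32851 mouse promoters of the same length, 23.3% hold it. Fcgr1 alone of the 6 held TTCNNNGAA, as TTCCCAGAA 109 bases before its start (7.02% of promoters), and Fcgr4 alone held GAAANNGAA, as GAAAAGGAA 73 bases before its start (7.13% of promoters). The windows of Fcgr2b, Fcer1g and Fcgrt held none of the 3. The matches did not overlap each other and are matches of letters, with no binding measured. The RefSeq starts used here need not match the GENCODE spans given earlier. The Fcgr3 and Fcgr2b windows lie within those spans.

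The first comparison asked what the bleomycin and LPS challenge changed. By limma on log2(FPKM + 1) across all 15164 genes tested, all 6 genes were higher in AE-PF lung than in saline lung at a Benjamini-Hochberg adjusted p under 0.05. Of all genes tested, 26.4% were higher and 30.2% lower, and the median change was 1.71 log2 over the 6 genes beside -0.03 over all genes. After libraries were scaled to equal FPKM totals, the share of calls that were higher moved from 46.7% to 63.2% and the median of all genes from -0.03 to 0.09, and the same 6 genes were called.

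Fcgr1, the high-affinity receptor that binds monomeric IgG, was the scarcest of the 6 in saline lung. Saline libraries 1 to 4 held 2.58, 2.11, 2.66 and 2.53 FPKM, AE-PF libraries 11.8, 10.9, 12.1 and 13.1, and ND-RHL libraries 4.84, 5.81, 3.58 and 3.38. The 3 groups did not overlap, and the AE-PF values were the tightest in relative terms. The mean rose 4.86-fold, from 2.47 ± 0.250 to 12.0 ± 0.903 FPKM (SD, n = 4), a log2 change of 1.91 ± 0.13 (SE, limma adjusted p = 1.72e-06).

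Fcgr3, a low-affinity receptor for immune complexes, was the most abundant of the activating receptors. Its saline libraries held 17.1, 15.4, 25.4 and 19.3 FPKM, its AE-PF libraries 83.4, 97.7, 70.3 and 73.9, and its ND-RHL libraries 26.1, 40.3, 22.5 and 26.7. AE-PF libraries 1 and 2 were the highest, and saline library 3 reached into the ND-RHL range. The mean rose 4.21-fold, from 19.3 ± 4.36 to 81.3 ± 12.2 FPKM (SD, n = 4), a log2 change of 2.03 ± 0.19 (SE, limma adjusted p = 8.16e-06).

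Fcgr4, an activating receptor found on monocytes, macrophages and neutrophils, held 3.23, 3.27, 5.02 and 4.48 FPKM in saline libraries, 13.8, 12.8, 12.4 and 13.5 in AE-PF libraries and 8.13, 12.3, 9.36 and 9.61 in ND-RHL libraries. The groups did not overlap, and ND-RHL library 2 lay just below the lowest AE-PF library. The mean rose 3.28-fold, from 4.00 ± 0.892 to 13.1 ± 0.671 FPKM (SD, n = 4), a log2 change of 1.51 ± 0.13 (SE, limma adjusted p = 5.89e-06).

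Fcer1g, the shared γ chain, held 29.6, 29.3, 36.4 and 35.7 FPKM in saline libraries, 98.3, 90.0, 94.99 and 95.8 in AE-PF libraries and 53.0, 60.0, 49.0 and 50.3 in ND-RHL libraries. No group overlapped another. The mean rose 2.89-fold, from 32.7 ± 3.85 to 94.8 ± 3.50 FPKM (SD, n = 4), a log2 change of 1.51 ± 0.09 (SE, limma adjusted p = 7.83e-07). The receptors that use this chain, Fcgr1, Fcgr3 and Fcgr4, rose 3.28-fold to 4.86-fold.

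Fcgr2b, the inhibitory receptor, held 6.00, 5.30, 6.47 and 6.73 FPKM in saline libraries, 41.6, 41.7, 29.96 and 31.1 in AE-PF libraries and 11.2, 13.6, 9.37 and 11.8 in ND-RHL libraries. AE-PF libraries 1 and 2 were higher than 3 and 4, and no group overlapped another. Its 5.90-fold rise, from 6.13 ± 0.625 to 36.1 ± 6.45 FPKM (SD, n = 4), had the highest mean ratio of the 6 genes, with a log2 change of 2.37 ± 0.13 (SE, limma adjusted p = 7.55e-07).

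Fcgrt, the transport receptor, held 48.1, 44.1, 40.2 and 43.7 FPKM in saline libraries, 62.6, 60.5, 48.5 and 46.8 in AE-PF libraries and 54.01, 44.0, 45.6 and 46.1 in ND-RHL libraries. The groups overlapped in every comparison, and AE-PF libraries 1 and 2 carried the higher AE-PF mean. That mean was 1.24 times the saline mean, 54.6 ± 8.09 against 44.0 ± 3.24 FPKM (SD, n = 4), a log2 change of 0.29 ± 0.10 (SE, limma adjusted p = 0.0294). The call did not hold when any of 5 single libraries was left out (saline 2, 3 or 4, AE-PF 1 or 2), where the adjusted p was 0.0561 to 0.0899.

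The order of levels differed between the groups. In saline lung Fcgrt was highest, followed by Fcer1g, Fcgr3, Fcgr2b, Fcgr4 and Fcgr1, with no overlap between neighbours among the 4 libraries. In AE-PF lung Fcer1g and Fcgr3 came first and overlapped, followed by Fcgrt, Fcgr2b, and then Fcgr4 and Fcgr1, which overlapped. In ND-RHL lung Fcer1g and Fcgrt overlapped at the top, followed by Fcgr3, Fcgr2b and Fcgr4, the last of which overlapped Fcgr2b, and Fcgr1 was lowest.

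The second comparison asked how lungs treated with the drug-loaded liposomes differed from the untreated model. In ND-RHL against AE-PF lung, 5 of the 6 genes were lower by limma. Of all genes tested, 17.4% were lower and 24.3% higher, and the median change was -1.06 log2 over the 6 genes beside 0.06 over all genes. With libraries scaled to equal FPKM totals the share of calls that were lower moved from 41.8% to 62.4%, and with quantile normalisation to 53.6%. All 5 genes were lower under both, and with equal totals Fcgrt also passed (adjusted p = 0.0326).

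Fcgr2b fell by 1.57 ± 0.13 on the log2 scale, from 36.1 ± 6.45 to 11.5 ± 1.73 FPKM (limma adjusted p = 2.31e-05). Fcgr3 fell by 1.48 ± 0.19, from 81.3 ± 12.2 to 28.9 ± 7.84 FPKM (adjusted p = 0.000175), and Fcgr1 fell by 1.29 ± 0.13, from 12.0 ± 0.903 to 4.40 ± 1.14 FPKM (adjusted p = 4.75e-05, SE of log2 changes, SD of FPKM, n = 4). The AE-PF means of these 3 receptors were 2.73 to 3.14 times the ND-RHL means. Fcer1g fell by 0.83 ± 0.09, from 94.8 ± 3.50 to 53.1 ± 4.91 FPKM (limma adjusted p = 5.97e-05).

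Fcgr4 differed least among the activating receptors. It fell by 0.39 ± 0.13 on the log2 scale, from 13.1 ± 0.671 to 9.84 ± 1.74 FPKM (SD, n = 4, limma adjusted p = 0.0323). Leaving out any of 6 single libraries (AE-PF 1, 2 or 4, ND-RHL 1, 3 or 4) ended this call, with adjusted p of 0.0521 to 0.0893, and so did the replicate number as a block (0.0532). The individual ND-RHL libraries kept 45.3% to 90.7% of the Fcgr4 rise, against 5.17% to 33.9% for Fcgr3 and 9.50% to 35.1% for Fcgr1. For Fcgrt the change was -0.19 ± 0.10 (SE), which did not pass the test (limma adjusted p = 0.155).

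**Figure D2:**
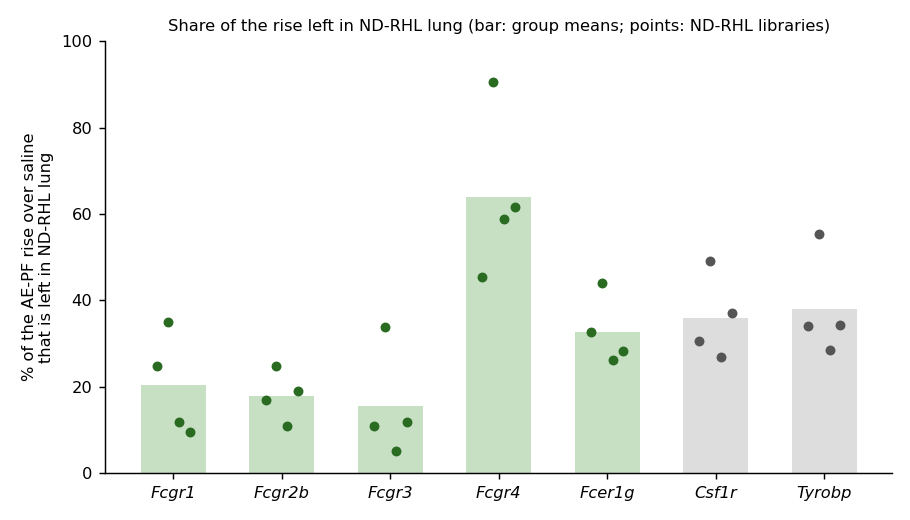
Percent of the rise from saline to AE-PF lung that was left in ND-RHL lung, for 5 Fc receptor genes and, in grey, the macrophage receptor gene Csf1r and the adaptor gene Tyrobp (bars from group means, points for the 4 ND-RHL libraries). Fcgr4 stands at 64.1%, and its lowest library, at 45.3%, is above the highest library of Fcgr1, Fcgr2b, Fcgr3 and Fcer1g.

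The third comparison asked what still differed between treated and control lungs. In ND-RHL against saline lung, 4 of the 6 genes were higher by limma, beside 13.3% of all genes higher and 8.65% lower. The median change was 0.65 log2 over the 6 genes and 0.03 over all genes. Quantile normalisation moved the share of calls that were higher from 60.5% to 43.5% and called the same 4 genes.

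Fcgr4 had the highest remaining log2 change, 1.12 ± 0.13 (SE, limma adjusted p = 0.000419), with 9.84 ± 1.74 FPKM against 4.00 ± 0.892 (SD, n = 4). Fcgr2b followed with 0.80 ± 0.13 (adjusted p = 0.00223), then Fcer1g with 0.68 ± 0.09 (adjusted p = 0.000601) and Fcgr1 with 0.62 ± 0.13 (adjusted p = 0.00706). The order of the last 2 depended on the pseudocount: with 0.1 in place of 1, Fcgr1 stood at 0.78 and Fcer1g at 0.70. In these 4 genes every ND-RHL library lay above every saline library, and the share of all genes that did so was not counted. Fcgr3 was 0.55 ± 0.19 higher on the log2 scale and did not pass (adjusted p = 0.0561). Its adjusted p was 0.0298 without saline library 3, 0.0478 without AE-PF library 2 and 0.0376 without ND-RHL library 3. Fcgrt did not pass either, with a log2 change of 0.10 ± 0.10 (SE, adjusted p = 0.512).

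When AE-PF library 2 and ND-RHL 4, which held squamous and muscle transcripts, were left out, 5 genes were higher in AE-PF lung than in saline lung, 4 were lower in ND-RHL lung than in AE-PF lung and 4 were higher in ND-RHL lung than in saline lung. The genes lost were Fcgrt in the first (adjusted p = 0.0862) and Fcgr4 in the second (adjusted p = 0.0786). Fcgr2b was then 2.30 log2 higher in AE-PF lung than in saline lung, and Fcgr4 1.13 log2 higher in ND-RHL lung than in saline lung.

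A ratio of FPKM values within a library is free of that library's total. For the test, 12 ratios were taken as differences of log2(FPKM + 1) and compared between groups by a 2-sided exact permutation test over the 70 labelings, and over 3 comparisons the 36 p-values were adjusted by Benjamini-Hochberg. The smallest p this design allows is 0.0286. The number of tests that reached it was 20, with an adjusted p of 0.0514, so none passed 0.05. The ratios are therefore described by their values and by whether the groups overlapped.

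The balance between Fcgr4 and Fcgr3 differed between all 3 groups without overlap. The ratio of Fcgr4 to Fcgr3 FPKM was 0.189, 0.211, 0.197 and 0.232 in saline libraries, 0.166, 0.131, 0.176 and 0.183 in AE-PF libraries and 0.312, 0.304, 0.416 and 0.361 in ND-RHL libraries. The mean was thus highest in treated lung, 0.348 ± 0.0515 against 0.164 ± 0.0231 in AE-PF and 0.208 ± 0.0187 in saline lung (SD, n = 4). The ratio of Fcgr1 to Fcgr4 was 0.635 ± 0.1196 in saline, 0.915 ± 0.0712 in AE-PF and 0.451 ± 0.109 in ND-RHL lung, where AE-PF libraries overlapped neither of the others.

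The ratio of the inhibitory Fcgr2b to the activating Fcgr3 was 0.325 ± 0.0467 in saline, 0.444 ± 0.0374 in AE-PF and 0.407 ± 0.0481 in ND-RHL lung (SD, n = 4). AE-PF and saline libraries did not overlap, and the ND-RHL libraries overlapped both groups. Set against Fcgr4 instead, the ratio of Fcgr2b was 1.57 ± 0.237 in saline, 2.75 ± 0.461 in AE-PF and 1.18 ± 0.163 in ND-RHL lung. How the inhibitory receptor compared with an activating one therefore differed with the activating receptor chosen. The γ chain per Fcgr3 was lower in AE-PF lung, with a ratio of Fcer1g to Fcgr3 of 1.19 ± 0.191 against 1.73 ± 0.207 in saline and 1.90 ± 0.297 in ND-RHL lung, and AE-PF libraries overlapped neither group. Fcer1g and Tyrobp, the other main ITAM adaptor of myeloid cells, kept a ratio of 0.635 ± 0.0699, 0.711 ± 0.0629 and 0.636 ± 0.0209 in the 3 groups, which overlapped.

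Csf1r encodes the receptor for the macrophage growth factor and is itself a macrophage marker that rose, from 26.1 ± 1.35 to 51.8 ± 2.64 FPKM, and was 35.3 ± 2.51 in ND-RHL lung. Per Csf1r, all 4 Fcgr genes were higher in AE-PF lung than in saline lung with no overlap. The ratio of Fcgr2b to Csf1r was 0.236 ± 0.0281, 0.698 ± 0.1197 and 0.324 ± 0.0283 in saline, AE-PF and ND-RHL lung, and that of Fcgr3 to Csf1r 0.738 ± 0.141, 1.58 ± 0.268 and 0.811 ± 0.159. The ratio of Fcgr4 to Csf1r was 0.153 ± 0.0326, 0.254 ± 0.00864 and 0.278 ± 0.0322, so AE-PF and ND-RHL libraries overlapped and both lay above saline. The ratio of Fcgr1 to Csf1r was 0.0948 ± 0.00897, 0.232 ± 0.0197 and 0.124 ± 0.0265.

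**Figure D3:**
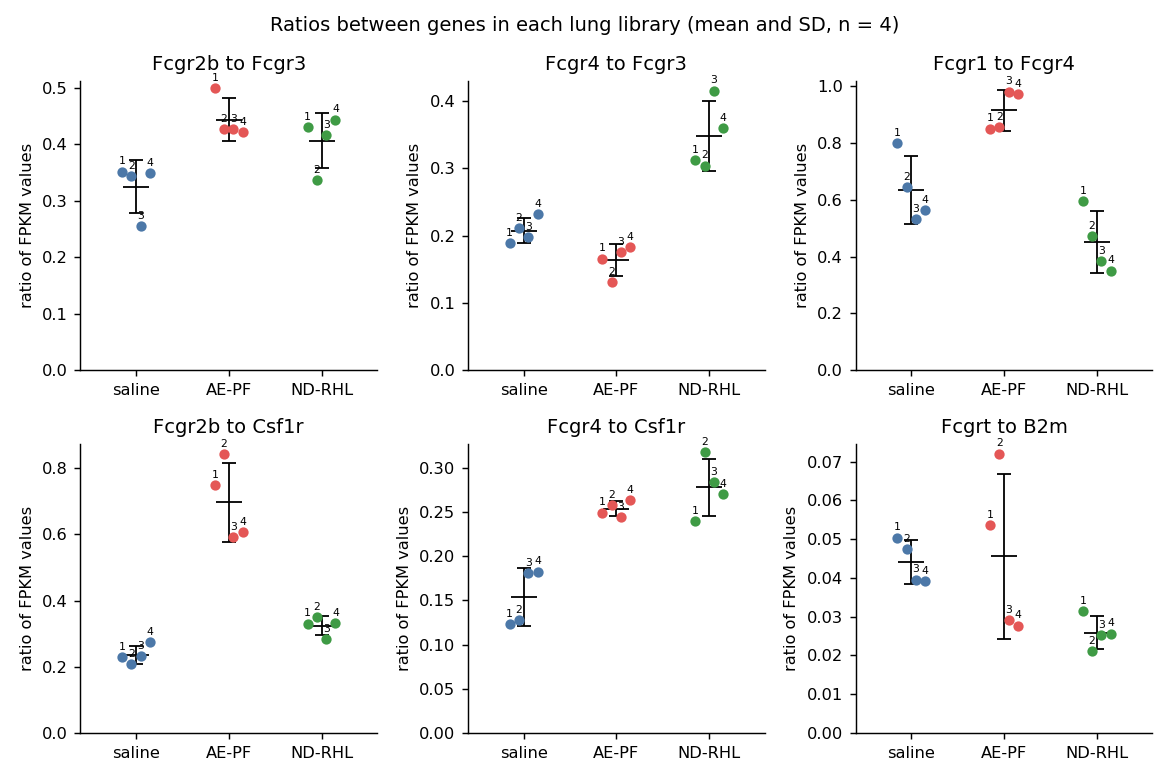
Ratios of FPKM values within each library for 6 pairs of genes, with points numbered by library, horizontal bars for the mean and error bars for the SD (n = 4 per group). The ratio of Fcgr4 to Fcgr3 is highest in the 4 ND-RHL libraries (0.304 to 0.416), and that of Fcgr2b to Csf1r is highest in the 4 AE-PF libraries (0.591 to 0.842).

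Fcgrt pairs with B2m, the gene of β2-microglobulin, which also serves the class I molecules of antigen presentation. B2m stood at 1005 ± 83.9 FPKM in saline, 1342 ± 413 in AE-PF and 1849 ± 157 in ND-RHL lung (SD, n = 4), and was higher in ND-RHL lung than in saline lung (log2 change 0.88, limma adjusted p = 0.0122). The ratio of Fcgrt to B2m was 0.0441 ± 0.00567 in saline and 0.0259 ± 0.00424 in ND-RHL lung, with no overlap. In AE-PF lung it was 0.0536 and 0.0721 in libraries 1 and 2 and 0.0290 and 0.0277 in libraries 3 and 4. Of 9 genes of the Fcgrt partner and the recycling endosome, 1 rose and 3 fell in AE-PF lung, or 2 and 2 with libraries scaled to equal totals and 2 and 4 when AE-PF library 2 and ND-RHL 4 were left out. Over all genes 26.4% were higher and 30.2% lower. Snx4, a sorting nexin of recycling, rose by 0.52 log2 (adjusted p = 0.00023), and Ehd1, a recycling ATPase, fell by 0.47 (adjusted p = 3.5e-05). Myo5b, the motor of recycling vesicles, fell by 0.70 (adjusted p = 0.000791) and was 0.67 higher in ND-RHL lung than in AE-PF lung (adjusted p = 0.00214). Rab11a, a recycling GTPase, fell by 0.27 (limma adjusted p = 0.00866), a call that did not hold with equal totals.

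Transcripts of the IgG heavy chains, whose proteins are the ligands, differed widely between libraries, and IgG protein was not measured. The 4 IgG heavy chain genes Ighg1, Ighg2b, Ighg2c and Ighg3 summed to 0.527 to 2.57 FPKM in saline libraries. In AE-PF libraries 1 to 4 the sums were 845, 715, 116 and 45.1, and in ND-RHL libraries 28.5, 31.3, 21.6 and 280. AE-PF libraries 1 and 2, which were highest for Fcgr2b, Fcgr3 and Fcgrt, were also highest in these sums. All 4 were higher in AE-PF lung than in saline lung by limma, beside 26.4% of all genes. In ND-RHL against saline lung 1 (Ighg2c) was higher, beside 13.3% of all genes. Ighg2c was 0.520 ± 0.360 in saline, 59.2 ± 35.2 in AE-PF and 54.8 ± 76.7 FPKM in ND-RHL lung. Ighg3 was the only one that fell in ND-RHL against AE-PF lung (adjusted p = 0.0359), from 111 ± 136 to 2.699 ± 2.12 FPKM. Of all genes 17.4% were lower there. A limma-voom fit on whole fragments called 1 of the 4 higher in AE-PF lung, beside 3989 of 15164 genes. In that fit neither the Ighg2c call in ND-RHL lung nor the fall of Ighg3 held. Reads of these near-identical genes may be split between them.

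Other receptors that bind Fc parts differed in direction among themselves. Of 14 listed, 10 passed the filter on low values, 2 rose in AE-PF lung and 4 fell, with a median of -0.36 log2, shares near the 26.4% higher and 30.2% lower over all genes. Fcrls and Fcrlb, Fc receptor-like genes, were the 2 that rose. Fcrls went from 6.21 ± 1.54 to 25.9 ± 6.26 FPKM (limma adjusted p = 3.72e-05) and was 8.16 ± 2.38 in ND-RHL lung, and Fcrlb went from 0.342 ± 0.205 to 3.00 ± 0.689 (adjusted p = 1.38e-05) and was 0.635 ± 0.278. Fcrlb did not reach the filter when AE-PF library 2 and ND-RHL 4 were left out. Pigr, which carries IgA and IgM across epithelia, fell from 38.6 ± 21.0 to 6.48 ± 3.22 FPKM (adjusted p = 0.000571), and Fcamr, a receptor for IgA and IgM, fell by 0.67 log2 (adjusted p = 0.00579). In ND-RHL against AE-PF lung 6 of the 10 were higher and 2 lower (Fcrls and Fcrlb), beside 24.3% and 17.4% of all genes. Against saline lung 3 were higher and 1 lower (Pigr, adjusted p = 0.025), beside 13.3% and 8.65% of all genes.

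Other receptors and adaptors that signal through ITAMs rose together with Fcer1g in AE-PF lung. Of 12 tested of 15 listed, 10 rose, with a median of 0.78 log2, beside 26.4% of all genes higher. Tyrobp rose from 52.5 ± 11.8 to 134 ± 14.4 FPKM (limma adjusted p = 2.28e-05), and Trem2, a lipid receptor that signals through it, from 0.570 ± 0.169 to 11.7 ± 0.777 (adjusted p = 7.96e-06). Clec4n (Dectin-2), a fungal sugar receptor that uses the γ chain, rose from 8.51 ± 2.36 to 70.5 ± 17.3 FPKM (adjusted p = 1.03e-05), and Cd300ld by 0.87 log2 (adjusted p = 0.000477). Treated lung had lower levels of 7 of the 12 than AE-PF lung, beside 17.4% of all genes lower. Trem2 was 3.89 ± 2.49 and Clec4n 23.8 ± 10.1 FPKM in ND-RHL lung. There 5 of the 12 were above saline, beside 13.3% of all genes.

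Of 21 genes that carry the activating signal, 15 rose and 2 fell in AE-PF lung, with a median of 0.61 log2. Over all genes 26.4% rose and 30.2% fell. Lat2, a membrane scaffold, rose by 1.27 (limma adjusted p = 7.15e-06), Pik3cg, a lipid kinase, by 1.16 (adjusted p = 7.07e-06), Vav1, an exchange factor for Rac, by 1.15 (adjusted p = 1.66e-05) and Card9, an adaptor upstream of NF-κB, by 0.68 (adjusted p = 5.01e-05). The 2 that fell were the kinase gene Fyn (-0.27, adjusted p = 0.0205) and the phospholipase gene Plcg1 (-0.27, adjusted p = 0.0404), and neither passed with libraries scaled to equal totals or with the libraries rich in squamous and muscle transcripts left out. Between ND-RHL and AE-PF lung 4 fell and 2 rose (Lat and Plcg1), with a median of -0.10, beside 17.4% lower and 24.3% higher over all genes. With equal totals 7 fell between ND-RHL and AE-PF lung, beside 3889 of 15163 genes. When AE-PF library 2 and ND-RHL 4 were left out 10 fell, beside 2628 of 14832 genes. In ND-RHL against saline lung 12 of the 21 were higher, Lat among them, beside 13.3% of all genes. Syk itself was 9.87 ± 1.43, 11.6 ± 2.45 and 12.6 ± 2.32 FPKM in the 3 groups and passed in no comparison. It was named after its values were seen.

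The oxidase produces the burst that follows uptake. All 6 subunit and activator genes rose in AE-PF lung, with a median of 0.97 log2, beside 26.4% of all genes higher. Cybb, the catalytic subunit, rose from 13.3 ± 2.26 to 48.8 ± 11.7 FPKM (limma adjusted p = 2.49e-05), and Cyba, its partner, from 55.9 ± 4.02 to 120 ± 13.7 (adjusted p = 5.75e-06). Ncf1, a cytosolic subunit, rose by 1.39 log2 (adjusted p = 1.17e-05). Between ND-RHL and AE-PF lung 3 fell, Cyba and Ncf1 among them, beside 17.4% of all genes. With equal totals 5 fell, beside 3889 of 15163 genes. When AE-PF library 2 and ND-RHL 4 were left out 5 fell, beside 2628 of 14832 genes. Above saline were 4, beside 13.3% of all genes. Cybb, at 34.3 ± 7.27 FPKM, did not pass against AE-PF lung (adjusted p = 0.0667).

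Genes of the inhibitory arm rose beside Fcgr2b. Of 15, 13 rose in AE-PF lung, with a median of 0.73 log2, beside 26.4% of all genes higher. Inpp5d, the phosphatase recruited by the Fcgr2b product, rose from 9.50 ± 0.539 to 16.8 ± 0.0678 FPKM (limma adjusted p = 2.25e-06) and was 12.2 ± 0.916 in ND-RHL lung. The inhibitory receptor genes Lair1, Clec12a and Lilrb4a rose by 1.89 (adjusted p = 7.55e-07), 1.53 (adjusted p = 6.19e-06) and 1.52 log2 (adjusted p = 1.03e-05). Against AE-PF lung, 9 of the 15 fell in ND-RHL lung, with a median of -0.44, beside 17.4% of all genes lower. Against saline 6 were higher and 1 lower, beside 13.3% and 8.65% of all genes. The lower one was Inppl1, the sister phosphatase of Inpp5d (-0.17, adjusted p = 0.0247), which did not pass with equal totals.

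**Figure D4:**
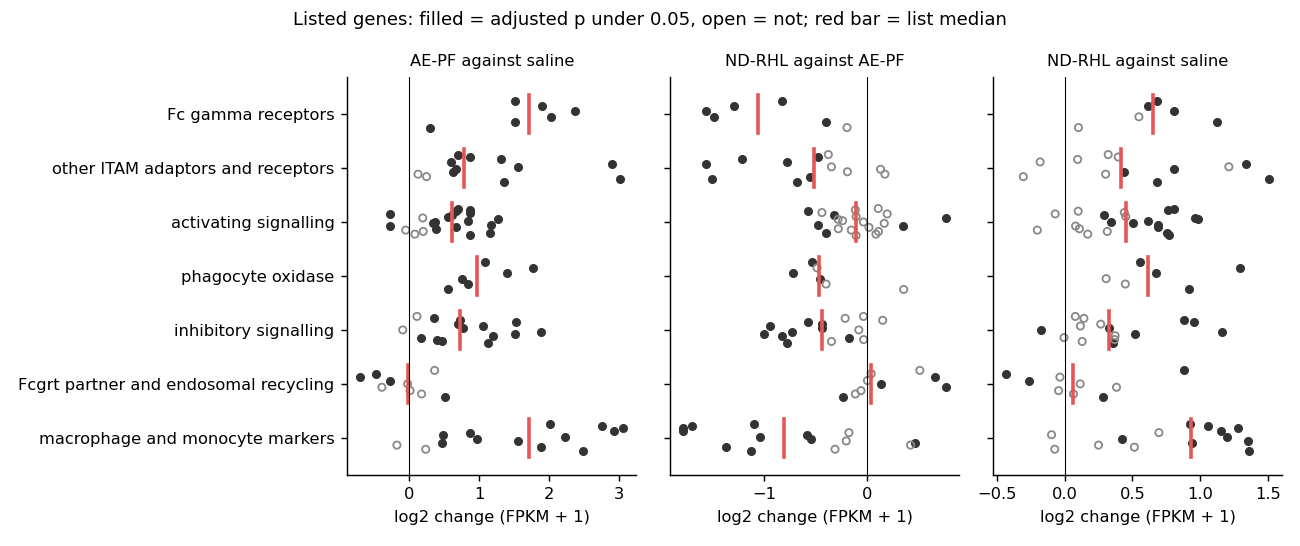
Log2 change of FPKM + 1 of each listed gene that passed the filter, in the 3 comparisons (filled points have an adjusted p under 0.05, open points do not, and red bars are list medians). The Fc gamma receptor genes have a median of 1.71 in AE-PF against saline lung and -1.06 in ND-RHL against AE-PF lung, and the activating signalling genes -0.10 in the latter.

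Genes known to control Fc receptor expression were mixed. Of 18 tested of 21 listed, 9 rose and 6 fell in AE-PF lung, beside 26.4% higher and 30.2% lower over all genes. The number that fell was thus near the share over all genes. Spi1, which encodes PU.1, rose from 12.5 ± 1.58 to 25.1 ± 2.84 FPKM (limma adjusted p = 1.67e-05) and was 17.3 ± 1.18 in ND-RHL lung, lower than in AE-PF (adjusted p = 0.00223) and higher than in saline lung (adjusted p = 0.00911). Jak2, a kinase of the interferon-γ receptor, rose by 0.68 log2 (adjusted p = 1.57e-06), and Il4ra, the interleukin-4 receptor chain, by 0.99 (adjusted p = 2.29e-05). Il4ra then fell by 1.15 in ND-RHL against AE-PF lung (adjusted p = 3.76e-05). The cytokine genes Ifng, Il10 and Il13 did not reach the filter.

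The 6 that fell in AE-PF lung were Irf1, Cebpa, Il4, Stat6, Hc and Nr3c1. Hc, the gene of complement component C5, fell from 127 ± 13.6 to 12.7 ± 9.35 FPKM and was 108 ± 28.5 in ND-RHL lung (limma adjusted p = 0.000195 for the fall and 0.000731 for ND-RHL against AE-PF). C5ar1, the receptor of its fragment, went the other way, at 8.20 ± 1.37, 18.8 ± 5.25 and 8.06 ± 0.971 FPKM. Nr3c1, the glucocorticoid receptor through which dexamethasone acts, was 33.7 ± 1.52 in saline, 23.3 ± 2.504 in AE-PF and 30.9 ± 2.46 FPKM in ND-RHL lung (adjusted p = 0.000234 for AE-PF against saline and 0.00267 for ND-RHL against AE-PF). Irf1, an interferon-response factor, was 32.8 ± 2.01, 17.3 ± 5.95 and 25.2 ± 2.57 FPKM in saline, AE-PF and ND-RHL lung.

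Markers of several cell types that carry these receptors differed between the groups, some in the direction of the receptor genes and some against it, and their part in the results was not tested. Of 14 macrophage and monocyte markers, 12 rose in AE-PF lung, beside 26.4% of all genes. Their median was 1.72 log2, close to that of the 6 receptor genes. Against AE-PF lung 9 markers fell in ND-RHL lung and 1 rose, beside 17.4% and 24.3% of all genes. Above saline were 9, beside 13.3% of all genes. Their summed level was 3768 to 4686 FPKM in saline, 3271 to 5505 in AE-PF and 4232 to 5835 in ND-RHL lung, most of it Lyz2, and no marker was at 0 in all libraries of a group. Ms4a7, a macrophage membrane gene, was 0.905 ± 0.0642, 9.73 ± 1.16 and 3.97 ± 1.10 FPKM, Adgre1 (F4/80) 9.32 ± 1.52, 40.5 ± 2.49 and 18.7 ± 3.88, and the complement gene C1qc 16.3 ± 1.76, 132 ± 27.3 and 38.5 ± 10.9 in saline, AE-PF and ND-RHL lung.

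The 1 marker that rose in ND-RHL against AE-PF lung was Ly6c2, of inflammatory monocytes, at 3.75 ± 0.685, 5.54 ± 0.677 and 8.07 ± 0.801 FPKM (limma adjusted p = 0.00386 against saline for AE-PF, 0.00586 for ND-RHL against AE-PF). Cx3cr1 and Ccr2, chemokine receptors of monocytes, were 13.1 ± 6.74 and 18.01 ± 6.08 FPKM in AE-PF lung and 9.96 ± 2.08 and 15.4 ± 4.24 in ND-RHL lung, and neither passed between these groups (adjusted p = 0.67 and 0.61). AE-PF library 2 had the lowest AE-PF level of both, 4.09 and 9.23. Both were named after their values were seen. Of 10 alveolar macrophage markers, 2 rose and 3 fell in AE-PF lung, near the 26.4% and 30.2% over all genes. Mrc1, the mannose receptor, rose from 14.6 ± 1.62 to 66.8 ± 33.7 FPKM (adjusted p = 0.000117), while Fabp1 and Krt79 fell by 3.12 and 2.05 log2 (adjusted p = 1.76e-05 and 2.01e-05).

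Of 11 tested neutrophil markers, 7 fell in AE-PF lung and 1 rose. Over all genes 30.2% fell and 26.4% rose. The summed level of all 12 was 234 to 514 FPKM in saline, 140 to 283 in AE-PF and 142 to 382 in ND-RHL lung. Csf3r, Cxcr2 and Mmp9 fell by 1.11, 1.16 and 1.20 log2 (limma adjusted p = 0.00138, 0.0024 and 5.31e-05), and the collagenase gene Mmp8 rose by 1.52 (adjusted p = 0.00132). Natural killer cell markers, of which 7 of 8 were tested, summed to 10.3 to 15.8 FPKM in saline, 2.55 to 13.3 in AE-PF and 23.3 to 43.5 in ND-RHL lung. All 7 rose in ND-RHL against AE-PF lung, beside 24.3% of all genes. Gzmb rose by 2.15 log2 there (adjusted p = 6.62e-05). Of 9 B and plasma cell markers 7 rose in the same comparison, with sums of 162 to 320 in AE-PF and 171 to 350 FPKM in ND-RHL lung. Of 8 endothelial markers 6 fell and 1 rose in AE-PF lung, beside 30.2% and 26.4% of all genes. All 6 alveolar type 2 markers fell there, and all 6 rose in ND-RHL against AE-PF lung, beside 24.3% of all genes. The part of any of these cell types in the receptor levels was not tested.

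Over the 12 libraries the genes whose log2(FPKM + 1) was most like that of each receptor were looked up among the 15163 others tested. Because the 3 groups differ, these correlations largely follow the group means, and libraries share their total and composition. Fcgr1 was most like Tmem176a (r = 0.995), P2ry6, Pla2g15, Nrp2 and Slc39a1, and Fcgr2b most like Msr1 (r = 0.995), the macrophage scavenger receptor, then Fn1, Fkbp14, Ykt6 and Lgals1. Msr1 was 0.618 ± 0.0355, 14.3 ± 4.15 and 2.68 ± 1.09 FPKM in saline, AE-PF and ND-RHL lung. Fcgr3 was most like Pirb (r = 0.992), Ms4a6d, Pgf, Ctsk and Cndp2, and Fcer1g most like Milr1 (r = 0.992), Otulinl, Tlr8, Srp72 and Rrm1.

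The genes most like Fcgr4 were others that stayed closer to AE-PF levels in treated lung. They were Apbb1ip (r = 0.987), Fam91a1, Snx5, Tor1aip2 and Lacc1. Apbb1ip, an adaptor of integrin activation, was 2.93 ± 0.327, 7.10 ± 0.208 and 5.62 ± 0.562 FPKM in saline, AE-PF and ND-RHL lung, and Lacc1, a macrophage enzyme, 2.22 ± 0.375, 8.50 ± 0.198 and 5.34 ± 0.625. The highest correlation for Fcgrt was lower, with Matn2 (r = 0.934), followed by Gm43300, Sfxn1, Hmgb1-ps2 and Igkv4-53, an immunoglobulin light chain segment with 53.2 ± 61.4 FPKM in AE-PF lung. Among the receptors themselves r was 0.961 to 0.981 between Fcgr1, Fcgr2b, Fcgr3 and Fcer1g, 0.856 to 0.939 between Fcgr4 and these 4, and 0.501 to 0.722 between Fcgrt and the other 5.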

How the data were processed

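Groups and replicate numbers came from the sample titles. The authors deposited 1 table of FPKM values for 35599 genes in 12 libraries. Tools listed in the submitters' processing notes, with no role or order, are STAR 2.7.9a, Trim Galore 0.6.6, FastQC, Subread 2.0.1, featureCounts and DESeq2 1.30.1. The notes give the builds GRCm38 and mm10. Strand and multi-mapping settings are not given in the sources used here. Positions in the table differed from GRCm38, so coordinates were taken from GENCODE M21 by gene identifier and promoters from RefSeq. The members and gene lists were chosen with earlier results of these data known.

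FPKM values became whole fragments within 1e-05 for 100.0% of genes, which gave the depth. The members rest on 76 to 4366 fragments per library. The main test was limma 3.58.1 (R 4.3.3), with a variance trend, on log2(FPKM + 1), all 12 libraries sharing 1 spread with 9 residual degrees of freedom, for genes of at least 1 FPKM in at least 4 libraries, with Benjamini-Hochberg adjustment over 15164 genes and a threshold of 0.05. The log2 scale understates changes of low genes. The fit was tested on simulated data covering 14429 genes, drawn around the saline means with 1 fixed spread. There 98 of 100 genes changed 2-fold and 100 of 100 changed 4-fold were found, with 11 others called. The real libraries spread more unevenly and far more genes were called in them. The simulation therefore checks that the fit runs as meant and does not give its error rate in the real comparison.

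Named genes were the 6 members, up to 4 genes of each list with the smallest adjusted p in AE-PF against saline, genes used in ratios, genes passing against most of their list, and the 5 genes most correlated with each member. Some genes that this rule names are not reported here. Ratios were tested by exact permutation (scipy 1.17.1). Libraries of a group differed by more than sampling noise (chi-square per gene 3.31 to 74). The lowest value belonged to AE-PF libraries 3 and 4, which were more alike than any other pair. The next lowest was 9.04, for saline libraries 1 and 4. Deviations of same-numbered saline and ND-RHL libraries had correlations of 0.397, 0.188, 0.114 and 0.173. Differently numbered libraries of these groups ran from -0.42 to 0.316. This is at most a weak hint of pairing, from the data and not from the labels. The other pairs of groups had correlations below 0.1 for 2 or more numbers. Alternatives covered the pseudocount, filter, scaling, replicate block, limma-voom and leaving out each library.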

Additional observations from a re-analysis of the deposited data

Results flagged for a closer look

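Of 54 sets of 4 libraries checked (6 genes and 12 ratios in 3 groups), 2 held a library whose gap to the nearest other exceeded Dixon's critical share of the range of its group. Both concern the ratio of Fcgr2b to Fcgr3 FPKM. Saline library 3 had a ratio of 0.255, below the 0.343 to 0.352 of the other saline libraries (gap 0.913 of the range), and it was also the saline library with the highest Fcgr3, at 25.4 FPKM. AE-PF library 1 had a ratio of 0.4996, above the 0.421 to 0.427 of the other AE-PF libraries (gap 0.922 of the range). Chance gives such a library in about 1 in 20 sets.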

How the results depend on the processing

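The number of receptor genes past the threshold stayed within 1.5 times in every alternative: 5 to 6 for AE-PF against saline, 4 to 6 for ND-RHL against AE-PF and 4 to 5 for ND-RHL against saline, the same ranges as when 1 library at a time was left out except that the second was then 4 to 5. Of 384 single-gene values, 362 kept their direction and side of the threshold, 17 lost the call (Fcgrt in AE-PF against saline or Fcgr4 in ND-RHL against AE-PF), 5 gained one and 0 reversed. Fcgrt lost its call with no filter (adjusted p = 0.0576) and with quantile normalisation (0.0645), Fcgr4 with no filter (0.0677), and Fcgr3 in ND-RHL against saline passed with equal totals (0.0493). Of 360 ratio values, 359 were labelled the same, which for a left-out library meant a shift smaller than the SD, whatever its sign. Sign changes on leaving a library out were not counted, since no ratio passed the test. With a pseudocount of 0.1 in place of 1, 1 reversed: the log2 ratio of Fcgr1 to Fcgr3 in AE-PF minus saline, -0.13, became 0.15, and neither passed. Of 2560 counts of list members, 262 moved by over 1.5 times, most of them counts under 5.

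With the replicate block, 6, 4 and 4 receptor genes passed in the 3 comparisons, and the only call it changed was Fcgr4 in ND-RHL against AE-PF. A block on saline and ND-RHL libraries alone, added after the pairing check, called the same 4 genes. Fcgr1 rests on at most 615 fragments per library and Fcgr4 on at most 307, the lowest counts of the 6.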
